A study of Rattus norvegicus with 4 samples.

Results

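Autophagy encloses damaged organelles, protein aggregates and other cargo in a growing membrane that becomes the autophagosome, which then fuses with the lysosome. The machinery works in steps: a kinase complex starts the process, a lipid kinase complex marks the membrane, lipid carriers make it grow, a ubiquitin-like conjugation system attaches proteins of the ATG8 family to it, and receptors bring in cargo. In macrophages the same proteins also take part in handling engulfed particles. The 38 genes described here were listed by symbol for these steps, and a probe was taken for a gene when its RefSeq accession belonged to that symbol. Of the 38 genes, 34 had at least 1 such probe, among 16581 named genes on the array. The other 4, Pik3r4, Atg2b, Atg4b and Calcoco2, had no probe with a RefSeq accession of that name, and no level is given for them.

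The data are 4 one-colour Agilent arrays of total RNA from NR8383, a macrophage line derived from rat lung lavage, at 20 passages. All 4 samples had been seeded for 48 h and exposed for 4 h to carbon nanotubes with amino groups (NRCWE049) at 1.2 cm2/cm2, and they are given as biological replicates. The unexposed cells of the study were not analysed here, so the values describe exposed cells and carry no comparison with a control. The arrays measure transcripts, not how fast autophagosomes formed or were degraded.

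Signals are Agilent's processed spot intensities in arbitrary units. A level is the log2 signal minus the 75th percentile of the probes detected on all arrays, and a gene was called detected when at least 1 of its probes was well above background on 4 of 4 arrays. The arrays each detected from 19143 to 19311 of 45598 probes, with the lowest detected signal between 16.7 and 20.1. Probes differ in how strongly they bind, so levels follow a gene between replicates and are not set against those of another gene. Of 11 measured macrophage markers, 11 were detected, among them Csf1r and Cd68. Among markers of other cells, 1 of 8 epithelial (Foxj1), 0 of 6 fibroblast, 1 of 6 lymphocyte (Cd3d), 3 of 6 endothelial (Pecam1, Cdh5 and Vwf) and 3 of 7 granulocyte and mast cell genes (S100a8, Camp and Hdc) were detected. All 4 arrays lay on 1 slide, and the number of arrays limits the precision. Replicates 3 and 4 were closer to each other than any other pair, with a median absolute difference of 0.084 log2 units over the 33 detected autophagy genes, against 0.113 to 0.200 for the other pairs. Even so, 3 of the 33 genes (Atg12, Atg13 and Atg4a, all dim) differed over 1.5-fold between them, against 1 or 2 for each other pair. Of all detected genes, 1.45% did so between replicates 3 and 4, and 4.99% to 7.75% between the other pairs. Replicates 3 and 4 were kept as the separate biological replicates that the design text gives. Of the 1039 detected probes with 10 spots, 53.8% differed between them by more than 2 standard errors of the spots, against 63.5% to 78.8% for the other pairs, and whether they share a source of RNA was not tested. With replicates 3 and 4 averaged to 1 sample, the median SD of the 33 genes was 0.128, against 0.152 for all detected genes.

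Nearly the whole measured machinery was transcribed in the exposed macrophages. Of 34 measured genes, 33 (97.1%) were detected on all arrays, and the exception was Wipi1. Over all 16581 named genes, the share detected was 52.5%. All 5 measured genes of the initiation kinase complex were detected, as were 5 of 5 of the class III PI3-kinase complex, 4 of 5 of the lipid transfer and membrane supply genes, 9 of 9 of the ATG8 conjugation genes, 5 of 5 of the ATG8 family and 5 of 5 of the cargo receptors. Detection rested on 1 detected probe for 25 of the 33 genes and on several for 8. The count of 33 was 29 when every probe of a gene had to be detected, because Ulk2, Rb1cc1, Atg7 and Atg10 each had a second probe that was not.

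**Figure D1:**
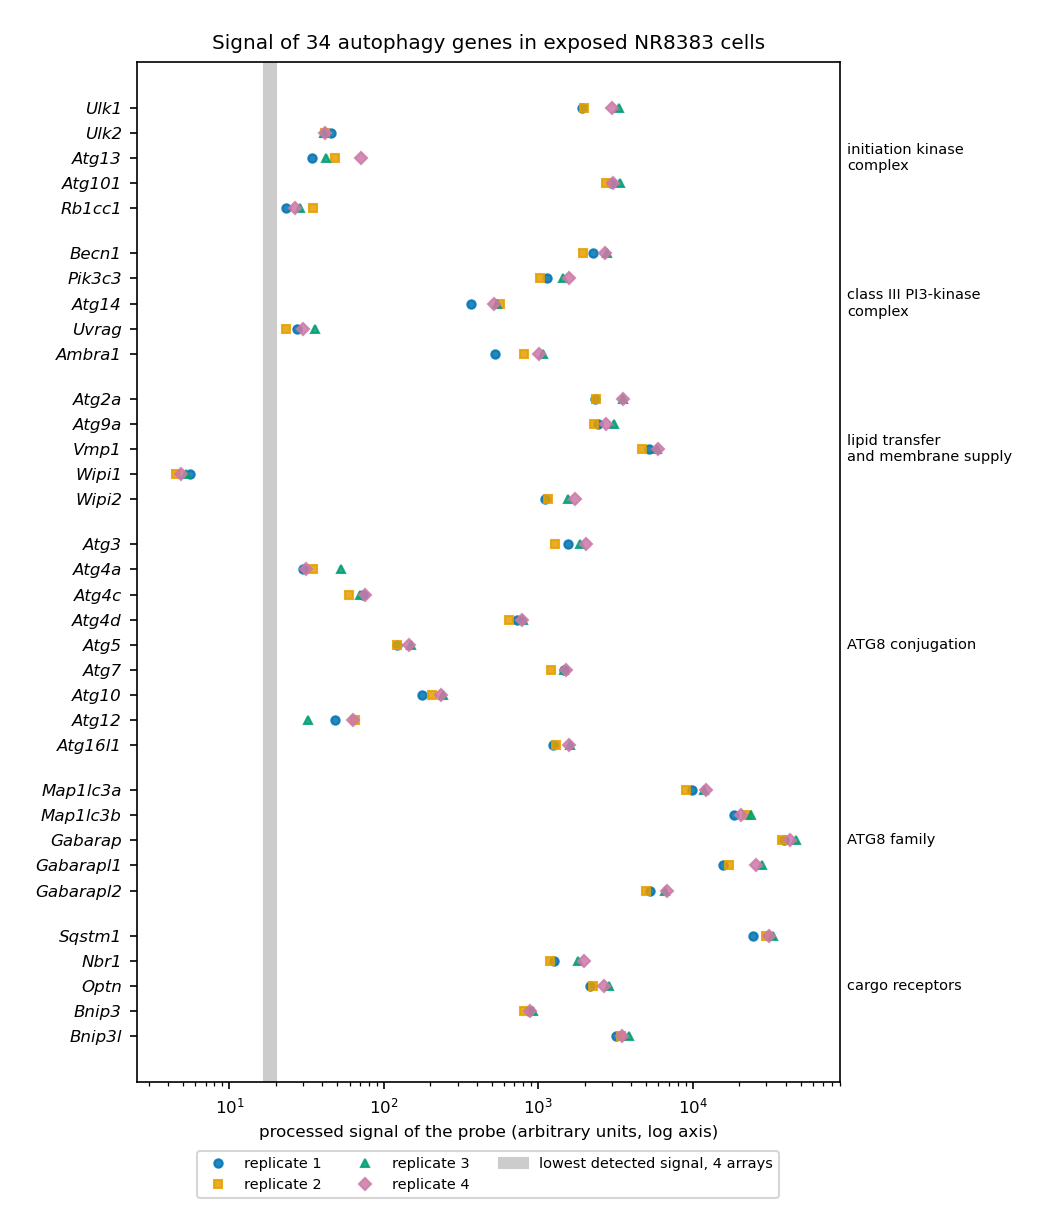
Processed signal (arbitrary units, log axis) of the probe used for each of the 34 measured autophagy genes, ordered by role, with 1 marker for each of the 4 replicates. The grey band spans the lowest detected signals of the 4 arrays, 16.7 to 20.1; Wipi1 lies below it on every array, and positions of different genes are not to be compared.

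Not all detections were equally far from the limit. In 7 of the 33 detected genes the signal came within 4-fold of the array's lowest detected signal on at least 1 array: Ulk2, Atg13, Rb1cc1, Uvrag, Atg4a, Atg4c and Atg12. In 4 of these, Rb1cc1, Uvrag, Atg4a and Atg12, it came within 2-fold. At the other end, the signals of Map1lc3b, Gabarap and Sqstm1 were over 1000 times that limit on every array.

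Among the initiation genes, Ulk1 encodes the kinase that starts autophagy when nutrient signalling falls. Its signal was 1912, 1992, 3326 and 2992 in replicates 1 to 4, and its level -0.04, 0.01, 0.42 and 0.32. Replicates 1 and 2 were the lower and replicates 3 and 4 the higher, with a mean level of 0.17 ± 0.23 (SD, n = 4) and a ratio of 1.38 between the extremes. The related kinase gene Ulk2 had levels of -5.43, -5.58, -5.94 and -5.85, so that replicates 1 and 2 were here the higher. A further Ulk2 probe was well above background on 2 of 4 arrays. Atg101, whose product stabilises ATG13 within the complex, stayed between 0.35 and 0.59 (mean 0.46 ± 0.10). Atg13 itself, the adaptor that links the kinase to its scaffold, spread from -5.88 in replicate 3 to -5.08 in replicate 4, at signals of only 34.5 to 70.9. Rb1cc1 encodes that scaffold, FIP200. It had signals of 23.3, 34.9, 28.8 and 26.5, close to the detection limit, and its other probe failed the background flag on all 4 arrays.

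Of the class III PI3-kinase complex, which makes the lipid phosphatidylinositol 3-phosphate on the forming membrane, the core subunits varied little. Becn1, the gene of the scaffold Beclin 1, had levels of 0.20, -0.03, 0.15 and 0.17 (mean 0.12 ± 0.10, SD, n = 4). Pik3c3, which encodes the lipid kinase VPS34, had -0.80, -0.95, -0.78 and -0.61 (mean -0.78 ± 0.14). Replicate 2 was the lowest for these 2 genes. Among the subunits that direct the complex, Atg14 and Ambra1 had wider spreads, that of Ambra1 through 1 replicate. Atg14, which sends the complex to autophagosome formation, had levels of -2.43, -1.81, -2.20 and -2.22 (mean -2.16 ± 0.26). Replicate 2 was its highest and replicate 1 its lowest, at 0.35 above and 0.27 below the mean. The SD of Atg14 was 0.124 without replicate 2 and 0.233 without replicate 1. Uvrag, which belongs to the form of the complex on endosomes, lay near the detection limit at signals of 23.2 to 35.8, with an SD of 0.136. Ambra1, a regulator that binds Beclin 1, had levels of -1.92, -1.29, -1.22 and -1.26. Replicate 1 was apart from the other replicates, and the SD of 0.33 was 0.0325 without it.

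Of the 5 measured genes that supply membrane, 4 were detected, with SDs of 0.067 to 0.169. Atg9a encodes the scramblase carried by vesicles to the growing membrane, and its level was 0.30, 0.21, 0.32 and 0.19 (mean 0.25 ± 0.07, SD, n = 4). A further Atg9a probe gave 0.18, 0.22, 0.27 and 0.13, with an SD of 0.061. Vmp1, which encodes a membrane protein of the endoplasmic reticulum needed for autophagosome growth, had 1.40, 1.25, 1.25 and 1.32 (mean 1.30 ± 0.07) from a probe with 10 spots. Its other detected probes varied more: one for a predicted Vmp1 transcript gave -1.21, -1.20, -1.78 and -1.84, and the third gave -3.18, -3.79, -3.71 and -3.64. With the mean over detected probes the SD of Vmp1 was 0.190. Atg2a, the gene of a lipid transfer protein, had 0.24, 0.26, 0.52 and 0.56 (mean 0.39 ± 0.17), again with replicates 1 and 2 the lower. Wipi1 and Wipi2 encode proteins that read phosphatidylinositol 3-phosphate. Wipi2 was detected at levels of -0.82, -0.78, -0.69 and -0.48 (mean -0.69 ± 0.15). The only Wipi1 probe gave signals of 5.56, 4.53, 5.22 and 4.86, failed the background flag on all 4 arrays, and was below detection under each of the detection rules tried. A transcript that this probe does not bind would not be seen.

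All 9 measured genes of the conjugation system were detected, and Atg4b, also listed, had no named probe. It is built like ubiquitination: ATG7 is the E1-like enzyme, ATG3 and ATG10 are E2-like enzymes, the complex of ATG12, ATG5 and ATG16L1 acts like an E3, and ATG4 proteases trim ATG8 proteins and take them off again. Atg7 had levels of -0.43, -0.71, -0.77 and -0.68 (mean -0.65 ± 0.15, SD, n = 4), with replicate 1 the highest. A further Atg7 probe, designed to a predicted transcript, failed the background flag on all 4 arrays. Atg3 had -0.34, -0.64, -0.41 and -0.24 (mean -0.41 ± 0.17), and Atg10 had -3.49, -3.26, -3.37 and -3.35 (mean -3.37 ± 0.09). Atg5 and Atg16l1 were among the steadiest genes of the list. Atg5 stayed between -4.06 and -4.01 with an SD of 0.022, and Atg16l1 between -0.65 and -0.60 with an SD of 0.026. With normexp background correction these SDs were 0.0751 for Atg5 and 0.0452 for Atg16l1. Atg12, the partner to which ATG5 is joined, had levels of -5.36, -4.93, -6.27 and -5.25, and replicate 3 was the lowest. This ratio of 2.53 between extremes was the only one above 2-fold among the 33 detected genes, against 2.66% of all detected genes. It came from signals of 32.4 to 65.1, and the SD of 0.57 was 0.227 without replicate 3 and 0.284 with normexp background correction.

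Of the 3 measured protease genes, the brightest probe had the narrowest spread. Atg4d was well above the limit at levels of -1.43, -1.61, -1.65 and -1.62 (mean -1.58 ± 0.10, SD, n = 4), with replicate 1 the highest. Atg4c spread from -5.15 in replicate 3 to -4.74 in replicate 1 (mean -4.99 ± 0.17). Atg4a, at signals of 30.0 to 53.0, spread from -6.26 in replicate 4 to -5.56 in replicate 3.

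The ATG8 family holds the proteins that are attached to the membrane lipid, in an LC3 branch and a GABARAP branch. All 5 measured members gave signals far above the detection limit, the lowest value of the brightest probes being 4994 for Gabarapl2 in replicate 2. Gabarap had levels of 4.32, 4.25, 4.23 and 4.15 (mean 4.24 ± 0.07, SD, n = 4), Gabarapl2 had 1.43, 1.34, 1.41 and 1.51 (mean 1.42 ± 0.07), and Map1lc3a had 2.34, 2.19, 2.24 and 2.35 (mean 2.28 ± 0.08). The brightest probes of these 3 genes varied by no more than 1.13-fold between replicates. A second Gabarapl2 probe spread 1.34-fold, from 0.81 in replicate 2 to 1.23 in replicate 1, and the mean over both probes had an SD of 0.116. Replicate 2 was the lowest on both.

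Gabarapl1 and Map1lc3b differed more between replicates, and in unlike directions. Gabarapl1 had levels of 3.00, 3.11, 3.49 and 3.41 (mean 3.25 ± 0.24, SD, n = 4), a ratio of 1.41 between extremes. Its probe had 9 or 10 usable spots per array, whose SD within an array was between 0.05 and 0.07. The lowest spots of replicates 3 and 4, at 3.41 and 3.34, were above the highest spots of replicates 1 and 2, at 3.10 and 3.25. Such differences were common: between these arrays, 72.8% to 78.8% of the 1039 detected probes with 10 spots differed by more than 2 standard errors. Spots repeat the measurement of 1 sample, and the variance of Gabarapl1 between replicates was not past the adjusted threshold (adjusted p = 0.969, limma variance test). Map1lc3b, which encodes LC3B, the usual marker of autophagosomes, had 3.23, 3.51, 3.26 and 3.10 (mean 3.28 ± 0.17). The SD of Map1lc3b was 0.083 without replicate 2. Each of its 4 probes was highest in replicate 2 and lowest in replicate 4. The Map1lc3b probe with 10 spots gave 2.64, 2.77, 2.42 and 2.39.

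**Figure D2:**
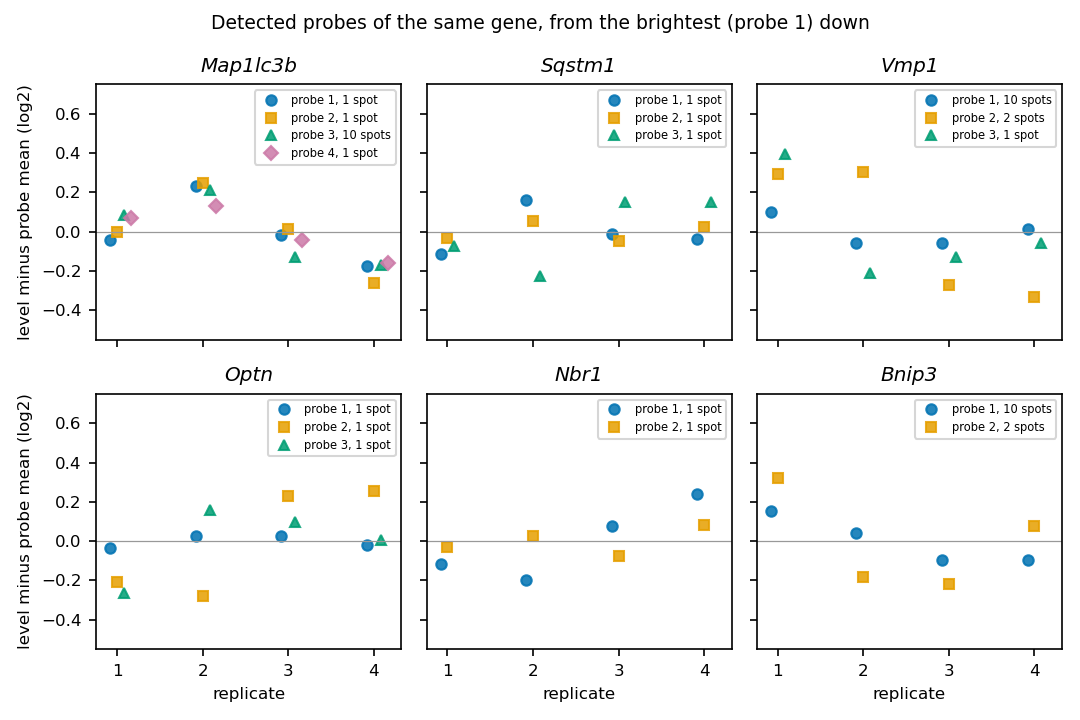
Levels of each detected probe minus that probe's mean (log2) in replicates 1 to 4, for 6 autophagy genes with several detected probes; markers stand for probes, from the brightest down, shifted sideways for legibility. The 4 Map1lc3b probes share their highest and lowest replicates, and the probes of Sqstm1, Vmp1, Optn and Nbr1 do not. The Bnip3 probes share their highest replicate and not their lowest.

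The cargo receptors tie ubiquitinated or mitochondrial cargo to ATG8 proteins. Sqstm1 encodes p62, which gathers ubiquitinated protein and is itself degraded with its cargo. It had signals of 24430, 29740, 33130 and 31350 and levels of 3.63, 3.91, 3.73 and 3.71 (mean 3.75 ± 0.12, SD, n = 4). A second probe for the same Sqstm1 transcript was also highest in replicate 2, at 1.62, against 1.54, 1.52 and 1.59. The probe for another Sqstm1 transcript lay between 0.85 in replicate 2, its lowest, and 1.23 in replicates 3 and 4. Nbr1, the gene of a related receptor, had -0.65, -0.73, -0.45 and -0.29 (mean -0.53 ± 0.20), with replicates 1 and 2 the lower, while its other probe stayed between -2.33 and -2.17. Optn encodes optineurin, a receptor for mitochondria and bacteria. The brightest Optn probe was steady, at 0.14, 0.20, 0.20 and 0.15 (mean 0.17 ± 0.03), and a dimmer one had -2.43, -2.50, -1.99 and -1.97.

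Bnip3 and Bnip3l encode receptors in the outer membrane of mitochondria, best known as targets of hypoxia signalling. Bnip3 had levels of -1.18, -1.29, -1.43 and -1.43 (mean -1.33 ± 0.12, SD, n = 4), and replicate 1 was also the highest on its second probe. The 9 usable spots of its main probe had an SD of 0.04 to 0.08 within an array. Bnip3l had 0.70, 0.80, 0.63 and 0.55 (mean 0.67 ± 0.11), with replicate 2 the highest. On their brightest probes, the spread of these mitophagy genes was close to that of the list as a whole. The second Bnip3 probe spread more, with an SD of 0.252.

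The spread between replicates was close to that of other genes. The median SD of the 33 detected genes was 0.141, against 0.151 for all 8713 detected genes, and 16 of the 33 were above the latter value. By role, the median SD was 0.235 for initiation genes, 0.141 for the PI3-kinase complex, 0.113 for membrane supply, 0.153 for conjugation, 0.079 for the ATG8 family and 0.117 for cargo receptors. These medians are not corrected for brightness, and dim genes spread more. The SD expected at a gene's brightness was 0.251 to 0.273 for Ulk2, Atg13 and Rb1cc1, and 0.120 to 0.123 for Atg101 and Ulk1. For the ATG8 family it was 0.113 to 0.119. Each gene's variance was set against that expected at its brightness with an F test on limma's residual variances. No member was past the adjusted threshold of 0.05 (lowest adjusted p = 0.969, limma, Benjamini-Hochberg over 8713 genes), where 0.0115% of all detected genes were. At an unadjusted p under 0.05 there were 2 members, Atg12 and Ambra1. This is 6.06% of the 33, with 4.30% of all detected genes at that threshold. A p above the threshold does not show that replicates were alike. Atg12, with an SD of 0.573 against 0.248 expected, had an unadjusted p of 0.0438 (limma variance test). Aarsd1, which is not a member, had an SD of 0.901 against 0.214 expected. Its adjusted p in the same limma test was still 0.825. How wide a member's spread had to be to pass the adjusted threshold is not reported here.

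**Figure D3:**
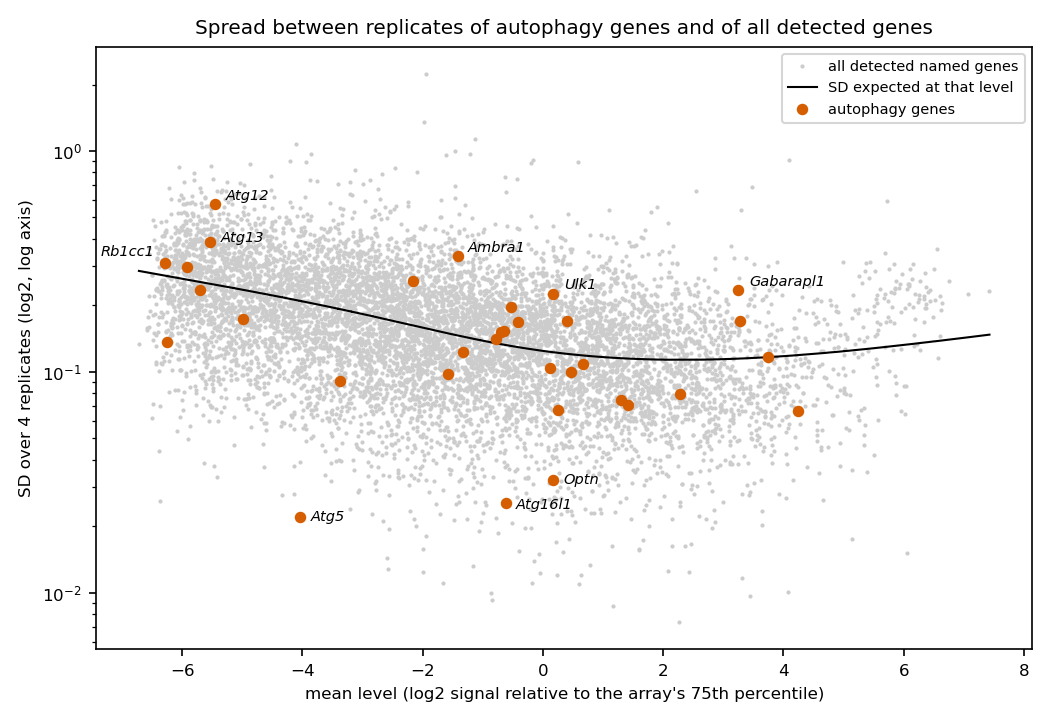
SD over 4 replicates (log2, log axis) against mean level (log2 relative to the array's 75th percentile), for all 8713 detected named genes in grey and the 33 detected autophagy genes in orange; the line is the SD expected at each level. Autophagy genes lie on either side of the line, with Atg12 at 0.57 and Atg5 at 0.022 as their extremes.

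No replicate stood out for the machinery as a whole. Replicate 1 held the lowest level for 10 of the 33 genes, replicate 2 for 8, replicate 3 for 7 and replicate 4 for 8. Over all 8713 detected genes, the lowest level lay in replicate 1 for 28.5%, in replicate 2 for 27.4%, in replicate 3 for 20.4% and in replicate 4 for 23.7%. The highest level lay in replicate 1 for 9 of the 33 members, in replicate 2 for 9, in replicate 3 for 7 and in replicate 4 for 8, against 34.6%, 24.8%, 15.9% and 24.7% of all detected genes. The median deviation of the members from their means was between -0.012 and 0.009 on each array, against -0.014 to 0.016 for all detected genes. Replicates 1 and 2 held the lower levels of Ulk1, Atg2a, Gabarapl1, Nbr1, Ambra1, Pik3c3 and Wipi2. The genes Ulk2, Bnip3, Bnip3l, Atg101, Gabarap, Atg5, Atg4d and Rb1cc1 ran the opposite way. The further detected probes of Nbr1 and Bnip3 did not split in this manner. Some further probes of genes not named here did. On these, replicates 1 and 2 were the lower for Optn and Sqstm1 and the higher for Vmp1 and Map1lc3b. Other further probes of the same genes did not. This split was looked for after the values were seen, and its share over all detected genes was not counted.

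**Figure D4:**
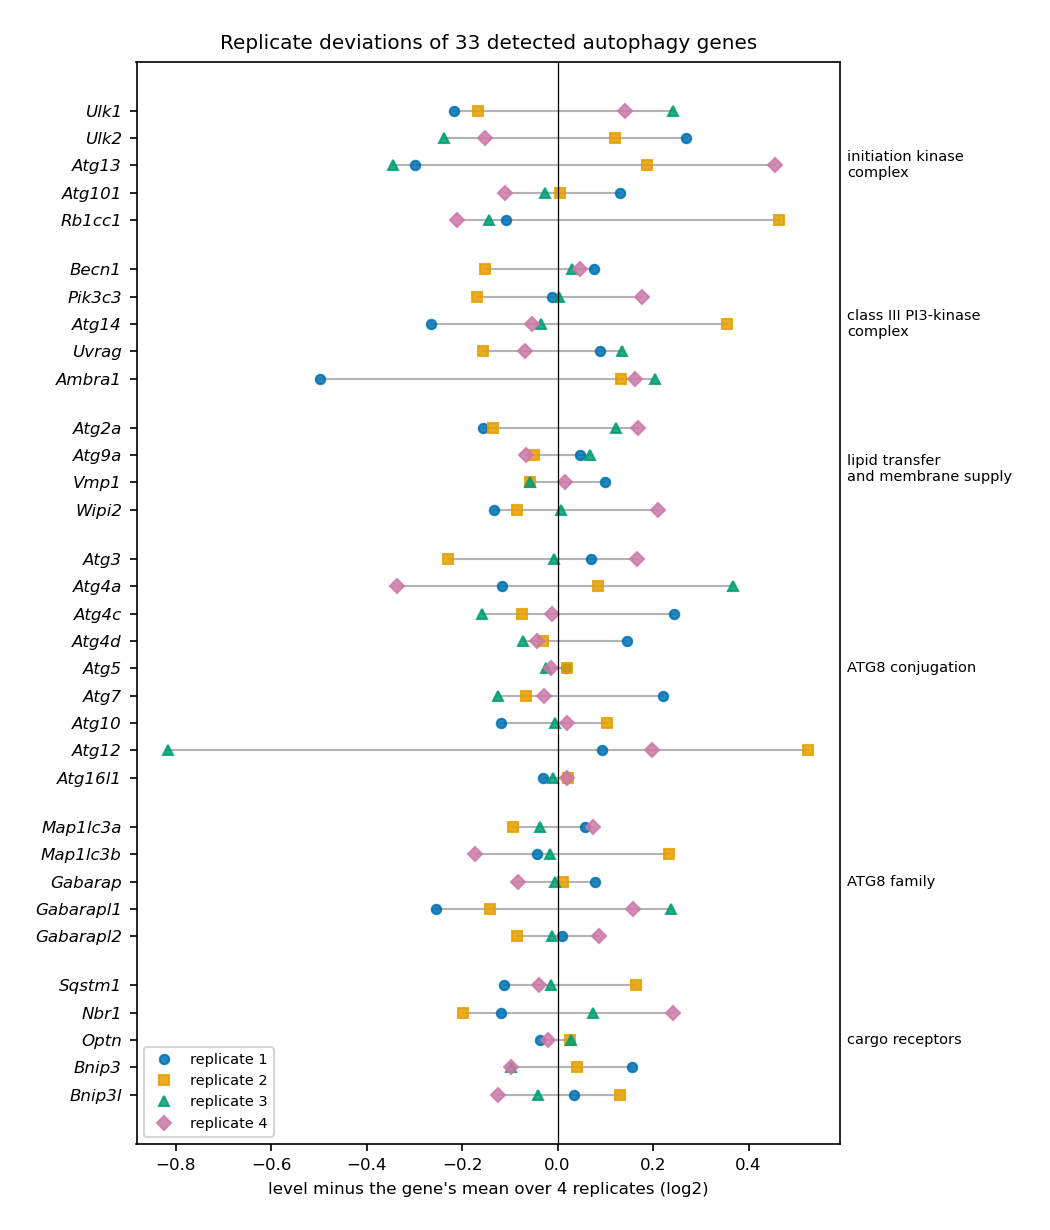
Level in each replicate minus the gene's mean over 4 replicates (log2) for the 33 detected autophagy genes, ordered by role, with a grey line from the lowest to the highest replicate. Atg12 spans 2.53-fold and Ambra1 has replicate 1 apart, and Atg5 and Atg16l1 span less than 1.04-fold.

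Promoter windows from RefSeq (GRCr8, 250 bases before to 50 after each gene's start) were found for 33 of the 38 genes, and none for Atg9a, Becn1, Bnip3l, Map1lc3a and Rb1cc1. TFEB and its relatives, the transcription factors best known for driving autophagy and lysosome genes, bind an extended E-box. The E-box CACGTG, which reads the same on either strand, occurred in 4 of the 33 windows, those of Atg3, Atg5, Atg14 and Bnip3 (12.1%), and in 6.65% of all 27457 windows. The longer core TCACGTGA, which contains the E-box, occurred in 1 of the 33 windows, that of Atg3, and in 0.867% of all windows. The core of the antioxidant response element, TGACNNNGC, occurred on either strand in 7 windows (Atg10, Atg4b, Atg4d, Gabarap, Map1lc3b, Ulk2 and Vmp1; 21.2%), and in 12.2% of all. The element TGATGNAA of the stress factors ATF4 and CHOP occurred in 0 of the 33, on either strand, and in 3.82% of all. Member windows had a median GC content of 60.7%, against 52.3% for all windows, and base composition was not matched in these shares. The E-box sites are printed here because the motif of this factor family contains these letters, 5′ to 3′ on the gene's strand, with the E-box in capitals. Only the Atg3 site from -16 lay within the longer core, and the others match the E-box alone. Positions count from the gene's start, with no base 0.
Atg3, chr11:69159302-69159331, minus strand, E-box from -39: gcctacttctgtCACGTGtcccgggagatt
Atg3, chr11:69159279-69159308, minus strand, E-box from -16: ggagattcgagtCACGTGaggcctaggagg
Atg5, chr20:49380804-49380833, plus strand, E-box from -19: cggggcgctggcCACGTGggcgggtgacgt
Atg14, chr15:23306792-23306821, minus strand, E-box from 7: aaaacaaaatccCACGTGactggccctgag
Bnip3, chr1:203155044-203155073, minus strand, E-box from -99: gcgcacgcgccgCACGTGccacacgcgccc

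The window of Atg3 held 2 E-boxes, of which the one nearer to the start was the longer core. It is printed whole, since it is the only member window with that core, with the E-box and the longer core in capitals (chr11:69159231-69159530, minus strand).
Atg3: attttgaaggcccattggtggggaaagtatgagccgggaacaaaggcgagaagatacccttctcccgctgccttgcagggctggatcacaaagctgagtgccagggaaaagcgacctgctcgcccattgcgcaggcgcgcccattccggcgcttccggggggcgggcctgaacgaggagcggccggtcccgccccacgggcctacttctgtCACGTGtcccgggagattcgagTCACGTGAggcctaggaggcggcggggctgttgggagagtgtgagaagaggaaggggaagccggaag
The window of Gabarapl1, the ATG8 gene with the widest spread between replicates, held none of the 4 motifs and is shown for comparison (chr4:164666082-164666381, plus strand).
Gabarapl1: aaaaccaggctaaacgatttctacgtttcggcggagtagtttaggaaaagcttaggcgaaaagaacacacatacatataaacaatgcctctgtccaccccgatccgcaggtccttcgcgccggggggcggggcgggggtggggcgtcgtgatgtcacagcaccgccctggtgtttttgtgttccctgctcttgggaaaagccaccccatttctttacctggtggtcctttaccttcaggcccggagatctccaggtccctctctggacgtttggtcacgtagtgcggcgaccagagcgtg
Among the 4 genes with an E-box, Atg3 was lowest in replicate 2 and Atg14 in replicate 1. Atg5 and Bnip3 were both higher in replicates 1 and 2. In replicates 3 and 4 their levels were nearly equal, at -4.06 and -4.05 for Atg5 and -1.43 in both for Bnip3. Whether the 4 genes share a pattern was not tested. A match is a description of these letters and says nothing of binding in these cells.

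The related lists were detected at 75% to 100% of their measured genes, against 97.1% of the members and 52.5% of all named genes, with no test of these shares. Of 8 further core genes, 7 were detected, among them Atg16l2, and Atg9b, the paralogue of Atg9a, was well above background on 0 arrays. All 13 measured genes of fusion with the lysosome were detected, with Stx17, the syntaxin of the autophagosome, at -4.41 ± 0.24 and Snap29 at 0.13 ± 0.17 (SD, n = 4 each). Of 13 further receptors and adaptors of selective autophagy, 10 were detected, including Tax1bp1 (-1.46 ± 0.14) and the ferritin receptor Ncoa4 (1.14 ± 0.14). The mitochondrial receptor gene Fundc1 and the reticulum receptor gene Retreg1 were among those well above background on 0 arrays.

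Regulators upstream were detected too. Of 17 genes of mTORC1 and AMPK, which restrain and promote autophagy, 16 were detected, with Mtor at -4.20 ± 0.21 and Rptor at 1.47 ± 0.08 (SD, n = 4 each). The exception was Prkaa2, while Prkaa1, the gene of the other catalytic AMPK subunit, was at -1.30 ± 0.09 (also named after its values were seen). All 11 TFEB and FOXO regulators were detected, among them Tfeb (-1.34 ± 0.13) and Tfe3 (1.71 ± 0.24). None of the genes in these lists was past the adjusted variance test. Lists of this kind hold widely expressed genes, and detection does not show that a pathway was active.

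**Figure D5:**
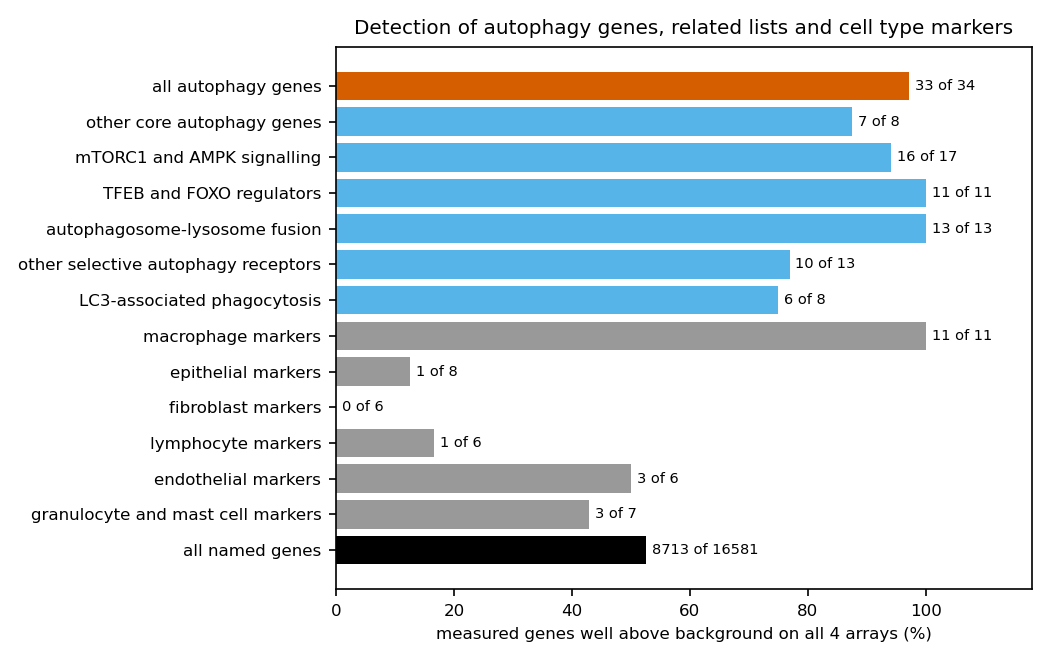
Share of measured genes (%) that were well above background on all 4 arrays, for the autophagy genes (orange), related lists (blue), cell type markers (grey) and all named genes (black), with the counts beside each bar. Autophagy genes stand at 33 of 34 and all named genes at 8713 of 16581.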

How the data were processed

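The deposited values are the authors' Agilent Feature Extraction 11.0.1.1 files (1 colour, Cy3); their processed intensity is corrected for background and not scaled between arrays, per the file headers and the submitters' processing notes. Of 62976 spots, 4259 controls and the outlier-flagged spots (537 to 722 per array) were left out, and no spot was saturated. Spots of a probe were averaged as log2 values. A probe was detected on an array when most of its spots carried the flag for signal well above background. The 75th percentile of the 39.3% of probes detected on all arrays set the scale, at signals of 1970 to 2493. RefSeq accessions without version named 21109 of 45598 probes through a GRCr8 gene table. A gene's level came from its brightest detected probe, and detection needed 1 probe.

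Variances were tested with limma 3.58.1 in R 4.3.3 (intercept fit, intensity trend, F test with Benjamini-Hochberg adjustment at 0.05). The data.table package (version 1.17.8) read the tables and matplotlib 3.10.9 drew the plots. No comparison between groups was possible with 1 group. Members and lists were chosen with earlier results of these data known. Every member is named; of other lists, the first 2 genes and exceptions numbering 5 or fewer, of which 1 is not reported here. Alternatives changed detection rules, scaling, background correction (normexp on the median spot signal), outlier flags, probe choice, the variance model and the replicates used.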

Additional observations from a re-analysis of the deposited data

Results flagged for a closer look

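In 2 of 33 sets of 4 replicate values, 1 replicate lay far from the other 3 by the ratio of its gap to the whole range, where chance flags about 1 in 20 sets, or 1.65 here. Ambra1 was low in replicate 1 (ratio 0.900), at -1.92 against -1.29, -1.22 and -1.26 in replicates 2 to 4. It has 1 probe with 1 spot, and around it on that array, 55 detected spots lying no more than 5 rows and 5 columns away deviated by a median of 0.02. Rb1cc1 was high in replicate 2 (ratio 0.847), at -5.83 against -6.40, -6.44 and -6.50 in replicates 1, 3 and 4, from signals no higher than 34.9. Its SD of 0.31 was 0.054 without replicate 2 and 0.179 with normexp background correction. The other Rb1cc1 probe was highest in replicate 2 too, but its signals of 5.26 to 16.8 were not well above background and give no support.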

How the results depend on the processing

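The count of 33 detected members was 29 to 33 under 10 alternatives, and 29 only when all probes of a gene had to be detected. No member was past the adjusted variance test under any of 13 alternatives, and over the 12 that kept the intensity trend the lowest adjusted p of a member was 0.782. Among all genes, the count past that test was 1 as reported, 4 with outlier spots kept, 9 with the percentile over all probes, without replicate 3, without replicate 4 or with replicates 3 and 4 averaged, and 0 with quantile normalization, no filter on dim probes, no intensity trend, without replicate 1 or without replicate 2. The median SD of the members stayed between 0.105 and 0.157 under 12 alternatives. Leaving out each replicate in turn gave 33 detected members, 0 varying members and median SDs of 0.105 to 0.157. The lowest, without replicate 2, stood beside 0.138 for all detected genes, and the highest, without replicate 3, beside 0.16. Averaging replicates 3 and 4, chosen after seeing the data, gave a median SD of 0.128, against 0.152 for all detected genes. Single genes moved more: with normexp, the SD of 25 of 33 genes stayed within 1.5 times its value, and without replicate 1, that of 26. Signal near background limits Rb1cc1, Uvrag, Atg4a and Atg12. No paired analysis was possible because there is 1 group.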

Other observations

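Macrophages can also attach LC3 to the membrane around engulfed particles, a process that needs the NADPH oxidase of phagocytes. Of 8 measured genes of this list, 6 were detected in the exposed cells. Cyba, which encodes the small membrane subunit of the oxidase, had levels of 6.55, 6.53, 6.26 and 6.16 in replicates 1 to 4. Beyond these, chosen after their values were seen, the cytosolic subunit genes Ncf1 (2.29 ± 0.08) and Ncf4 (2.19 ± 0.23, SD, n = 4 each) were detected as well. Cybb, whose product forms the catalytic core together with that of Cyba, was well above background on 1 of 4 arrays, and Trim16 on none. Lgals3 and Lgals8, named on the same basis, which encode galectins that bind damaged lysosomes and phagosomes, had levels of 6.18 ± 0.23 and -2.07 ± 0.10.

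Mitf, a relative of Tfeb, had levels of -1.19, 0.95, -0.15 and -0.39 in replicates 1 to 4 (adjusted p = 0.233, limma variance test over all detected genes). It was chosen after its values were seen, as the gene with the widest spread among the TFEB and FOXO regulators, at an SD of 0.885 against 0.096 to 0.325 for the other 10.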
